A study of Mus musculus with 7 samples.

Results

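Transcripts of heat shock chaperones and co-chaperones were examined in macrophages sorted from the inflamed mouse colon, with and without cre recombinase in the LysM locus on a floxed Rictor background. The group was a list of 10 genes: the inducible members Hspa1a, Hspa1b, Dnajb1, Hsp90aa1, Hsph1 and Hspb1, the constitutive members Hspa8 and Hsp90ab1, and the mitochondrial pair Hspd1 and Hspe1. A gene was measured by a probe set that carried its symbol alone, and where a gene had several, by the brightest over the 7 arrays. This gave 9 of the 10 genes, out of 22180 genes measured. Hsp90ab1 had no such probe set. The members were chosen by name, as a functional family, with their genotype differences on these arrays already known, and the brightest probe set was selected on its mean signal. The genotype differences of the members are therefore a description of these arrays.

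All mice were Rictor fl/fl, carrying floxed alleles of the gene for a subunit of the kinase complex mTORC2. The 4 LysM+/cre samples had cre in 1 copy of LysM, a locus active in macrophages and also in neutrophils, and the 3 LysM+/+ samples had none. Every mouse had received dextran sulphate sodium (DSS), which injures the colon epithelium, at 5% in the treatment phase of 5 days, and then water for 3 days. Cells were gated as Ly6C-negative, with CD64, MHC class II, CD11b and CD45 on the surface, and each sample was hybridised to 1 Affymetrix array without technical replicates. No group had cre without floxed Rictor, so loss of Rictor, presence of cre and the altered LysM allele cannot be told apart. The labels name no age. In such bulk samples, fewer cells of a type and less RNA per cell cannot be told apart either.

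Heat shock proteins bind unfolded stretches of other proteins and help them to fold, or hand them on for degradation. In stressed cells the transcription factor HSF1 forms trimers that bind heat shock elements, arrays of the unit GAA and its reverse complement TTC, upstream of the inducible genes. HSP70 proteins work with J-proteins that bring substrates and with exchange factors that release ADP, HSP90 takes over clients such as kinases, and HSP60 with its lid HSP10 folds proteins imported into mitochondria. Tissue digestion and cell sorting are known to induce the inducible genes and the immediate early genes in freshly isolated cells. The labels name no digestion time or temperature.

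All 9 measured members lay lower with cre than without it, by 0.04 to 1.01 on the log2 scale, while 48.6% of all genes lay below 0. The 6 inducible members were lower by 0.46 to 1.01, the mitochondrial pair by 0.22 and 0.61, and the constitutive Hspa8 by 0.04. The median difference of the members was -0.61, against 0.0044 over all genes tested, whose 5th and 95th percentiles were -0.41 and 0.37. Of the 9 members, 5 were at least 1.5-fold lower, against 2.55% of all genes. In 4 members no LysM+/cre array reached the lowest LysM+/+ array, a pattern met by 3.56% of all genes. At an unadjusted p under 0.05 in limma, 5 of the 9 members were lower (Hspa1b, Dnajb1, Hsp90aa1, Hsph1 and Hspb1), against 4.93% of all genes. After Benjamini-Hochberg adjustment over all genes none of the members passed 0.05, and neither did any other gene (0%). With each gene's own variance in place of limma's moderated one, 2 genes passed, neither of them a member. The values below are log2 signals, and differences are LysM+/cre minus LysM+/+.

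The arrays within each genotype were not alike for these genes, and the difference rests in part on an array at each end. LysM+/+ array 2 held the highest value of all 9 members. LysM+/cre array 3 held the lowest value of 8 of them, the exception being Hspa1a, which was lowest on LysM+/cre array 1. Each member was centred on its mean over the 7 arrays, and the deviations of the 6 inducible members were averaged. This mean deviation was 0.23, 0.77 and 0.14 on the LysM+/+ arrays, and -0.45, -0.14, -0.58 and 0.04 on the LysM+/cre arrays. Every LysM+/+ array lay above every LysM+/cre array, but LysM+/+ array 3 and LysM+/cre array 4 were only 0.11 apart. Leaving out both LysM+/+ array 2 and LysM+/cre array 3, a choice made after the data were seen, brought the mean difference of the inducible members from -0.66 to -0.37. That of the mitochondrial pair went from -0.41 to -0.099.

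**Figure D1:**
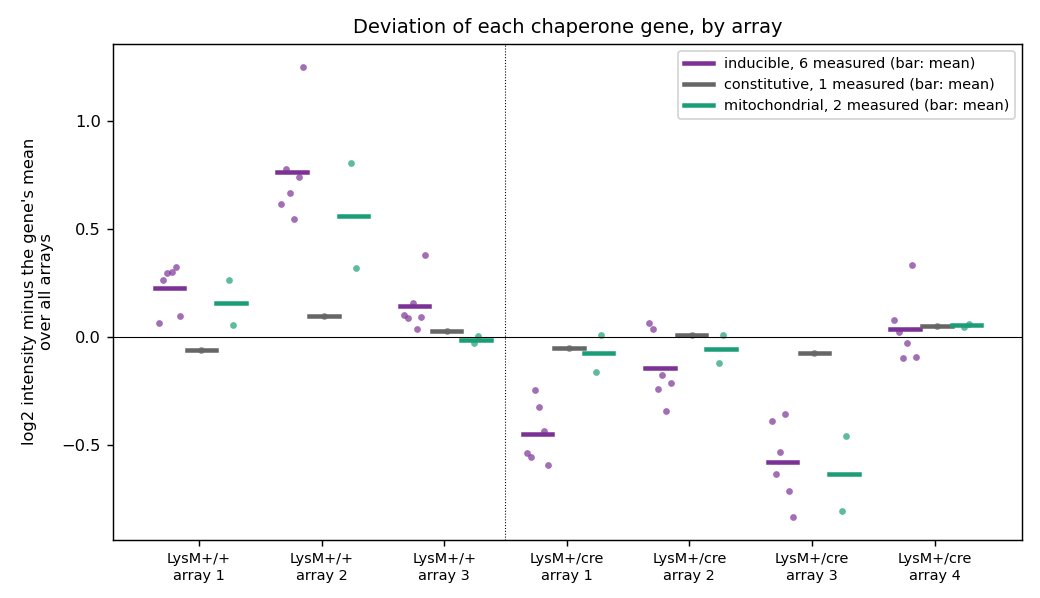
Deviation of each heat shock chaperone from its own mean over the 7 arrays (log2 units), array by array, with genotypes in separate blocks. LysM+/+ array 2 is the highest array for all 9 members and LysM+/cre array 3 the lowest for 8 of them.

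Neutrophil markers had their extremes on the same outer arrays, and stromal and epithelial markers did not. Other marker lists had an extreme on an outer array, but not on both. The mean deviation of B and plasma cell markers was highest on LysM+/+ array 2 (0.33), where that of endothelial markers was lowest (-0.29). Those of dendritic (-0.48) and of eosinophil and mast cell markers (-0.24) were lowest on LysM+/cre array 3. T and NK cell markers had neither extreme on these arrays. All 8 neutrophil markers on the list were higher with cre, 1 of them at an unadjusted p under 0.05 (6.56% of all genes were higher at that level), and their mean signal ranged from 5.74 to 7.87 without cre and from 6.94 to 9.03 with cre. The lowest of these means was on LysM+/+ array 2 and the highest on LysM+/cre array 3, where the inducible members were highest and lowest. The inducible members and the neutrophil markers also had mean deviations of opposite sign on LysM+/+ array 3 (0.14 and -0.23). The same held on LysM+/cre array 2 (-0.14 and 0.59) and LysM+/cre array 4 (0.04 and -0.17). On LysM+/cre array 1 both were low (mean deviation -0.45 for the inducible members and -0.50 for the neutrophil markers). On LysM+/+ array 1 both were high (0.23 and 0.43). With the mean neutrophil deviation of each array as a covariate, added after the data were seen, the inducible members averaged -0.48 and the mitochondrial pair -0.19, and Hspa8 stood at 0.002. Of the fibroblast and smooth muscle markers 9 of 11 were lower with cre, 4 of them at an unadjusted p under 0.05 against 4.93% of all genes, with means of 7.19 to 7.47 without cre and 6.72 to 7.21 with it. With their deviation as the covariate the inducible members averaged -0.65, against -0.66 without it. The members lower at an unadjusted p under 0.05 fell from 5 to 1, Dnajb1, against 2.69% of all genes in that fit. The deviation was 0.39, 0.11 and 0.24 without cre, and -0.36, 0.12, -0.26 and -0.23 with cre. It went largely with genotype, so the fit cannot separate stromal signal from genotype. All 10 epithelial markers were lower with cre, 1 at an unadjusted p under 0.05 against 4.93% of all genes, but their means overlapped widely, 6.88 to 8.44 without cre and 7.11 to 8.17 with it. The mean signal of the macrophage markers lay between 11.13 and 11.37 without cre and between 11.11 and 11.50 with cre, bright on every array. It was lowest on LysM+/cre array 3 and highest on LysM+/cre array 4. Single markers spread more. Cx3cr1 was highest on LysM+/+ array 2 (10.29) and lowest on LysM+/cre array 3 (7.81). Itgam had the reverse extremes, 11.20 and 12.29 on those arrays. Both were picked after their values were seen. Of the 12 macrophage markers 7 were higher and 5 lower. At an unadjusted p under 0.05, 2 were higher and 1 lower, against 6.56% and 4.93% of all genes. The markers at that level were Fcgr1 (the CD64 of the gate) at 0.97 ± 0.26 (SE), Itgam (its CD11b) at 0.53 ± 0.19 and Cd68 at -0.20 ± 0.079. They are named after their values were seen. The log2 values have no 0, so no marker can be called absent. What part neutrophil or stromal RNA, or the makeup of the gated cells, had in the chaperone differences was not tested.

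Rictor itself gave no check of the genotype. Its signal was 7.74 to 7.80 without cre and 7.72 to 8.25 with cre, a difference of 0.12 ± 0.13 (SE, limma adjusted p = 0.749). Neither the labels nor the annotation say which exons are probed, so the probe set may lie outside the floxed part.

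Hspa1a and Hspa1b encode the stress-inducible HSP70, the chaperone that is nearly absent from most unstressed cells and made in quantity after heat. For Hspa1b the signal was 11.37, 11.89 and 11.20 on the LysM+/+ arrays, and 10.55, 11.15, 10.48 and 11.13 on the LysM+/cre arrays. Its groups did not overlap, although the highest cre array came within 0.053 of the lowest control. The difference was -0.66 ± 0.24 (SE, limma adjusted p = 0.415), or 1.58-fold. For Hspa1a the signal was 12.64, 13.19 and 12.68 without cre, and 12.04, 12.64, 12.19 and 12.66 with cre. Its groups overlapped, since LysM+/cre arrays 2 and 4 reached the level of LysM+/+ array 1, and it differed by -0.46 ± 0.21 (SE, limma adjusted p = 0.455). Without LysM+/+ array 2 and LysM+/cre array 3 the differences were -0.34 for Hspa1b and -0.22 for Hspa1a. The coding sequences of this pair are nearly identical, so how far their probe sets tell them apart is uncertain. The 2 probe sets annotated to several symbols that include a member were not used.

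The sequences just upstream of annotated starts of the inducible genes are shown because HSF1 is known to act through heat shock elements in such regions. They come from RefSeq on build GRCm38.p6, which had entries for 7 of the 10 members, and not for Hsp90aa1, Hspa8 and Hsp90ab1. Each window covers the 250 bases before an annotated start, and capitals mark matches to GAANNTTC or TTCNNGAA, a pair of facing units. The first lies at chr17:34972157-34972406 on the minus strand, and the second at chr5:135887669-135887918 on the plus strand.
Hspa1a: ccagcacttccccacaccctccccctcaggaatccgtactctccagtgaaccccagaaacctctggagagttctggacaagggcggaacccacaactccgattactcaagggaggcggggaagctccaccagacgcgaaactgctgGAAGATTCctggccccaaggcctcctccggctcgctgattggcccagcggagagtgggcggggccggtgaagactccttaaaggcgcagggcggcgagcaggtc
Hspb1: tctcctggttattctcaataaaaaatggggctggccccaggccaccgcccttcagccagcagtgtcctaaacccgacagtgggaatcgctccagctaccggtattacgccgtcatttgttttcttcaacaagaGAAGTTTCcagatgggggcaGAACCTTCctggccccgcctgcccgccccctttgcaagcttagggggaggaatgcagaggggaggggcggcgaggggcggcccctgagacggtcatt
Hspa1a held GAAGATTC 104 to 97 bases before its start. The Hspa1b window differed from it at 3 of 250 bases, C44T, T47C and T249G, counted from 1 at the 5′ end with the Hspa1a base first, and so held the same match. Hspb1 held GAAGTTTC at 117 to 110 and GAACCTTC at 97 to 90 bases before its start. Both strands were searched by reading 1 strand, since each of these motifs is its own reverse complement.

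Shorter stretches show the matches of the other members. The Hsph1 stretch lies at chr5:149636351-149636380 on the minus strand, 44 to 15 bases before an annotated start. That start is not at the gene's edge, and the stretch lies within the annotated span of Hsph1 itself. The stretch at chr1:55088053-55088082 on the plus strand lies between 95 and 66 bases before the start of Hspe1 and within the annotated span of Hspd1, which is read in the opposite direction from the same region.
Hsph1: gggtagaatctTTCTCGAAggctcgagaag
Hspe1: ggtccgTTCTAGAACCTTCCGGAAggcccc
The Hspe1 stretch holds 4 alternating units, each 2 bases from the next, a match to the longer motifs GAANNTTCNNGAA or TTCNNGAANNTTC. Among the 32851 windows of the table, 12.8% held GAANNTTC or TTCNNGAA, and 0.466% a longer motif. A gene can have several windows, so counts of genes do not compare directly with these shares. The shorter motif was found in at least 1 window of 6 of the 7 members with windows, and the longer one for Hspd1 and Hspe1, which share it. Of the 2 Hspd1 windows, that of the start at the gene's edge held neither, and the match came from the inner start. No match was found in either window of Dnajb1. A match of letters is a description of the window, not a bound site.

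Dnajb1, the J-protein that delivers substrates to stress-inducible HSP70, separated the genotypes most steadily of the members. Its signal was 9.72, 10.09 and 9.58 without cre, and 9.17, 9.18, 8.89 and 9.32 with cre. The groups did not overlap and lay 0.26 apart at their nearest arrays. The difference was -0.65 ± 0.15 (SE, limma adjusted p = 0.341; 95% confidence interval -1.01 to -0.30), or 1.57-fold. It was lower at an unadjusted p under 0.05 in the reported fit and in all 19 alternatives run. Without LysM+/+ array 2 and LysM+/cre array 3 it stood at -0.42 ± 0.085 (SE, limma adjusted p = 0.339), a value moved by more than 1.5 times.

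Hsp90aa1 encodes the inducible cytosolic HSP90. Its signal was 9.28, 9.52 and 9.01 without cre, and 8.65, 8.80, 8.62 and 8.95 with cre. The groups did not overlap but were 0.066 apart at LysM+/+ array 3 and LysM+/cre array 4. The difference was -0.52 ± 0.14 (SE, limma adjusted p = 0.364), or 1.43-fold, and -0.35 without both outer arrays.

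Hsph1 encodes HSP110, which releases ADP from HSP70 and helps to dissolve aggregates. Its signal was 10.14, 10.55 and 9.90 without cre, and 9.37, 9.47, 9.09 and 10.14 with cre. Its groups overlapped through LysM+/cre array 4 alone, which stood level with LysM+/+ array 1. The difference was -0.68 ± 0.27 (SE, limma adjusted p = 0.422), and -0.88 without LysM+/cre array 4. Without both outer arrays it was -0.36.

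Hspb1, a small heat shock protein that holds unfolding proteins and stabilises actin, had the largest difference of the members. Its signal was 6.83, 7.99 and 7.11 without cre, and 6.14, 6.52, 5.90 and 6.64 with cre. The groups did not overlap, with 0.19 between the nearest arrays. The difference was -1.01 ± 0.31 (SE, limma adjusted p = 0.394), or 2.01-fold. LysM+/+ array 2 stood well above the other controls, and without it the difference was -0.67, or -0.54 with LysM+/cre array 3 left out as well. Its probe sets disagreed: the other one, with a mean of 4.71 against 6.73, gave 0.0097 ± 0.15 (SE), and its mean lay under the medians of the arrays, 5.16 to 5.21.

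**Figure D2:**
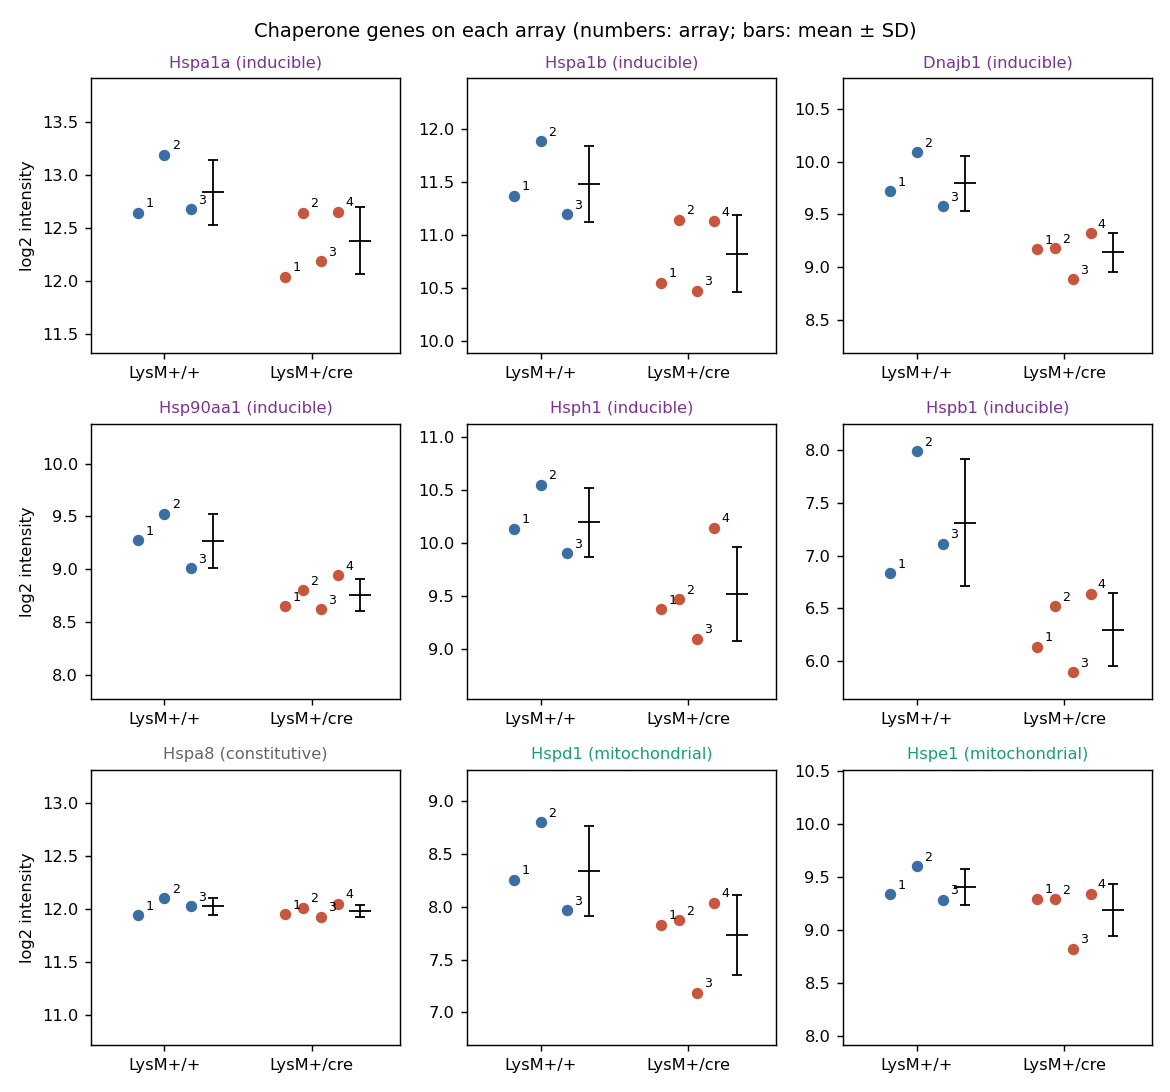
Log2 signal of each of the 9 measured members on each array, LysM+/+ (n = 3) and LysM+/cre (n = 4). Dnajb1, Hsp90aa1, Hspb1 and Hspa1b show no overlap between genotypes, while the arrays of Hspa8 span only 11.93 to 12.10.

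Hspa8, the constitutive HSP70 that most cells make without stress and that also uncoats clathrin vesicles, had the smallest difference of the members. Its signal was 11.94, 12.10 and 12.03 without cre, and 11.95, 12.01, 11.93 and 12.05 with cre. The groups overlapped over most of their range. The difference was -0.04 ± 0.064 (SE, limma adjusted p = 0.833), with a 95% confidence interval from -0.19 to 0.11. The difference between Hspa8 and the inducible members was not tested, since the same comparison chose them. Hspa8 had 3 dimmer probe sets, the brightest of them at a mean of 8.55, well under the one used. They gave differences of 0.068, 0.072 and 0.072, so the direction was not settled.

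Hspd1 encodes mitochondrial HSP60 and Hspe1 its co-chaperonin HSP10, and the genes lie head to head. For Hspd1 the signal was 8.26, 8.80 and 7.96 without cre, and 7.83, 7.87, 7.19 and 8.04 with cre. Its groups overlapped, and the difference was -0.61 ± 0.26 (SE, limma adjusted p = 0.442). For Hspe1 the signal was 9.34, 9.60 and 9.29 without cre, and 9.29, 9.29, 8.82 and 9.34 with cre. Here 3 of the 4 LysM+/cre arrays lay at the level of LysM+/+ arrays 1 and 3, and the difference was -0.22 ± 0.15 (SE, limma adjusted p = 0.596). Both depended on the outer arrays: without LysM+/+ array 2 and LysM+/cre array 3 Hspd1 was at -0.20 and Hspe1 at -0.0018. The mean deviation of the pair was 0.16, 0.56 and -0.01 without cre, and -0.07, -0.05, -0.63 and 0.05 with cre.

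The inducible members and the mitochondrial pair were compared array by array. Subtracting the mitochondrial from the inducible mean deviation left 0.07, 0.20 and 0.16 on the LysM+/+ arrays, and -0.37, -0.09, 0.06 and -0.02 on the LysM+/cre arrays. On this measure LysM+/+ array 2 was still the highest, but LysM+/cre array 3 was no longer the lowest. It stood nearly level with LysM+/+ array 1, so the genotypes were barely apart. The lowest was LysM+/cre array 1, well below the rest. The mean difference between the classes was -0.25, with values of -0.30 to -0.16 on leaving out single arrays, the smallest without LysM+/cre array 1.

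**Figure D3:**
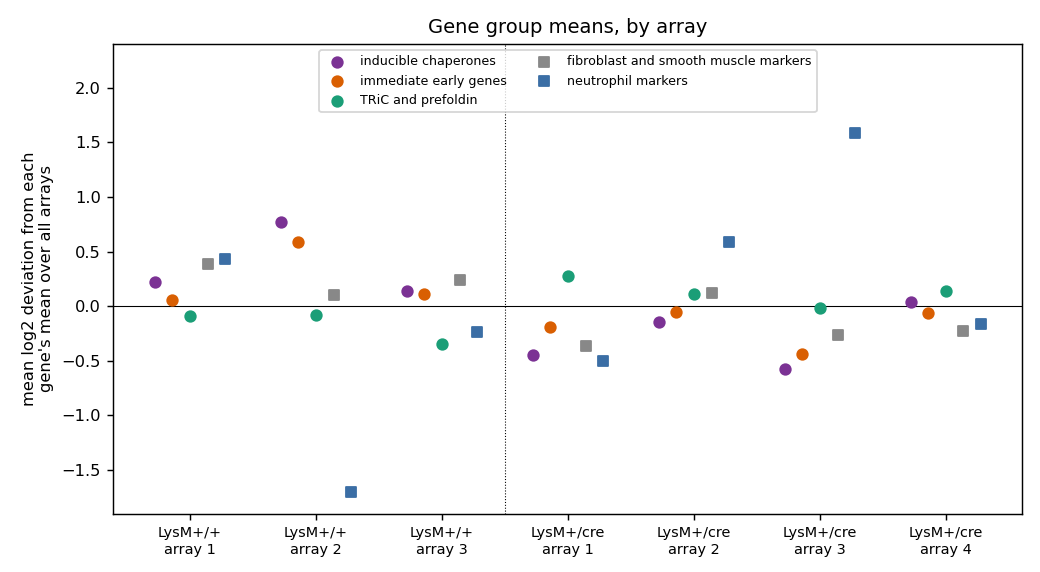
Mean deviation of the inducible members, 2 gene lists and 2 marker lists from their means over the 7 arrays (log2 units), by array and genotype. The inducible members and the immediate early genes are highest on LysM+/+ array 2 and lowest on LysM+/cre array 3, where the neutrophil markers are lowest and highest.

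The immediate early genes, transcription factors and regulators induced within minutes of a stimulus, followed the same arrays. Of 22 measured, 21 were lower with cre, with a median of -0.45, and 8 of these had an unadjusted p under 0.05 against 4.93% of all genes. Their mean deviation was 0.05, 0.58 and 0.11 without cre, and -0.19, -0.05, -0.44 and -0.07 with cre. Egr1, a zinc finger factor, differed by -1.29 ± 0.19 (SE), Jun, a subunit of AP-1, by -0.72 ± 0.21, and Ier5, which is known to act on HSF1, by -0.30. Their limma adjusted p-values, with those of all other genes, were above 0.05. Without both outer arrays 17 of 22 lay lower, with a median of -0.14. Of these, 3 had an unadjusted p under 0.05, against 4.64% of all genes in that fit. With the fibroblast covariate 19 of 22 lay lower, with a median of -0.49. In that fit 2 were lower at an unadjusted p under 0.05, against 2.69% of all genes, and 1 was higher, against 3.77%. Whether isolation of the cells had a part in these differences was not tested.

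Other genes of the HSP70 cycle did not share a direction. Of the 3 measured HSF regulators 1 was lower and none had an unadjusted p under 0.05. Hsbp1, an inhibitor of HSF1, was at 0.06 and Hsf4, the HSF of the lens, at 0.02. Hsf1 itself had no probe set named for it alone. The 8 other HSP70 and HSP110 genes had a median of -0.03, with 5 lower. Hspa4, an HSP110 relative of Hsph1, was higher by 0.33 ± 0.11 (SE), and by 0.087 with the fibroblast covariate. Hspa2, an HSP70 of the testis, was at -0.37, or -0.23 without LysM+/+ array 3 and -0.57 without LysM+/+ array 2. Of 11 J-proteins 6 were lower, with a median of -0.0078. Dnaja4 was at -0.54 ± 0.13 (SE) with no overlap between groups, while Dnajc2, which works at the ribosome, was at 0.28 and Dnaja2 at 0.20, or 0.10 without LysM+/+ array 3. Among the 8 exchange factors and partners of HSP70, Bag3, a stress-inducible exchange factor, was at -0.48, but Hspbp1 and Bag1, which serve the same step, were at 0.36 and 0.30. Bag3 was at -0.32 without LysM+/+ array 2, and Bag1 at 0.18 without LysM+/+ array 3. The small heat shock proteins other than Hspb1 had 5 of 6 members lower, with a median of -0.12. Hspb8, a partner of Bag3, was at -0.58, Cryaa at -0.12 and Hspb3 at 0.18. Cryaa read 5.24 on every array except LysM+/+ array 1, where it read 5.59. Hspb8 and Hspb3 were dim, with group means no higher than the array medians, 5.16 to 5.21. With the filter on dim probe sets 3 genes of this list were left, all lower, and Hspb8 and Hspb3 were not among them. With the fibroblast covariate Hspb8 was at -0.069.

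Several other chaperone lists had medians above 0. All 13 measured subunits of TRiC and prefoldin, which fold actin and tubulin, were higher with cre, with a median of 0.25. Of these, 5 had an unadjusted p under 0.05, against 6.56% of all genes, and 5 showed no overlap between the genotypes, against 5.23% of all genes. The highest difference among those named was that of Cct6a, a TRiC subunit, at 0.84 ± 0.24 (SE, limma adjusted p = 0.394). Its signal was 6.80, 7.58 and 7.03 without cre, and 8.30, 7.95, 7.51 and 8.14 with cre, so that LysM+/+ array 2 overlapped LysM+/cre array 3. With the neutrophil covariate, added after the data were seen, it passed, at 1.16 (limma adjusted p = 0.0238). With the fibroblast covariate it was at 0.48 (limma adjusted p = 0.926). Pfdn6 was at 0.54, or 0.33 without LysM+/+ array 3, and Vbp1, also a prefoldin subunit, at 0.25. The mean deviation of the 13 was -0.09, -0.08 and -0.34 without cre, and 0.28, 0.11, -0.01 and 0.14 with cre, with no overlap between the groups. Without both outer arrays all 13 were still higher, with a median of 0.32. Of these, 4 had an unadjusted p under 0.05, against 6.15% of all genes in that fit. The number was 0 with the fibroblast covariate (3.77% of all genes higher) and 1 without LysM+/cre array 1 (4.4%). It was 2 without LysM+/+ array 2 (5.46%), LysM+/+ array 3 (4.55%) or LysM+/cre array 2 (5.24%).

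Of 18 HSP90 co-chaperones 13 were higher, with a median of 0.18, and 5 of these had an unadjusted p under 0.05 against 6.56% of all genes. Cdc37, which brings kinases to HSP90, was at 0.50 ± 0.15 (SE), and Ahsa1, which stimulates its ATPase, at 0.48 ± 0.12. The signal of Ahsa1 was 8.41, 8.37 and 8.27 without cre, and 9.06, 8.74, 8.57 and 8.95 with cre, with no overlap. Fkbp8, an immunophilin of the mitochondrial surface, was at 0.36 ± 0.085 (SE, limma adjusted p = 0.348). Hsp90aa1, a cytosolic HSP90 gene whose product they serve, lay on the other side of 0, as given above. The constitutive Hsp90ab1 was not measured. With the fibroblast covariate 14 of the 18 were higher and 1 had an unadjusted p under 0.05, against 3.77% of all genes.

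The other mitochondrial chaperones and proteases did not follow Hspd1 and Hspe1. Of 12, 11 were higher, with a median of 0.11. Grpel2, an exchange factor of mitochondrial HSP70, read 6.86, 7.01 and 7.11 without cre, and 7.52, 7.63, 7.70 and 7.56 with cre. Its groups were well apart, at 0.60 ± 0.081 (SE, limma adjusted p = 0.303). Its paralog Grpel1 was at 0.33 and Clpp, a matrix protease, at 0.25, or 0.10 without LysM+/+ array 3. Of 14 endoplasmic reticulum chaperones 11 were higher, with a median of 0.16, and 5 of these had an unadjusted p under 0.05 against 6.56% of all genes. Hyou1, an HSP110-like chaperone, was at 0.65 ± 0.16 (SE), Calr, a lectin chaperone, at 0.42 and the J-protein Dnajb11 at 0.34. With the fibroblast covariate 1 endoplasmic reticulum chaperone was higher at an unadjusted p under 0.05, against 3.77% of all genes. None of the 4 ubiquitin genes on the list had a probe set named for it alone.

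**Figure D4:**
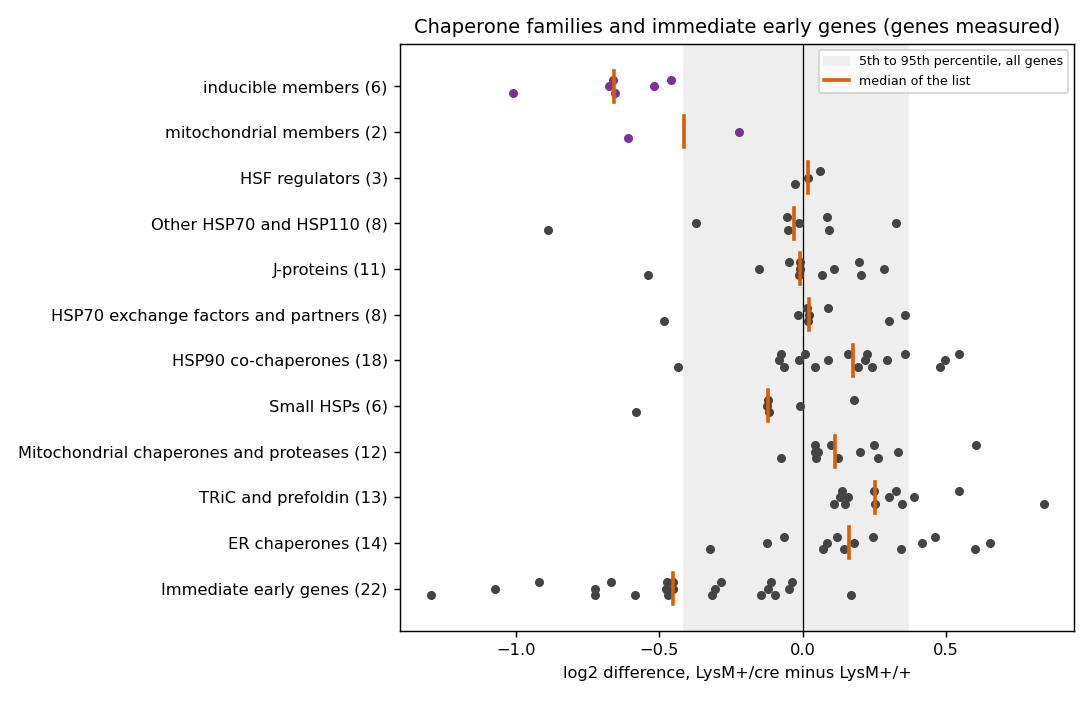
Log2 differences (LysM+/cre minus LysM+/+) of the measured genes of each chaperone list and of the immediate early genes, with each list's median. The 13 TRiC and prefoldin genes all lie above 0 and 21 of 22 immediate early genes lie below 0.

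Genes whose array profile lay nearest that of the inducible members were sought among 11084 genes brighter than the median gene. Likeness was the root mean square distance between centred log2 profiles over the 7 arrays, with the inducible members left out. The nearest were Mid1ip1, a regulator of lipid synthesis, at a distance of 0.082, and Timp2, a metalloprotease inhibitor, at 0.10. Engase, a glycosidase, and Ahnak, a large scaffold protein, followed at 0.11, and Jun and Sorbs3, an adhesion adaptor, at 0.12. Since they were picked for likeness to a profile that was lower with cre, genotype differences below 0 followed from the choice. These were -0.59 for Mid1ip1, -0.65 for Timp2, -0.64 for Engase, -0.54 for Ahnak and -0.60 for Sorbs3. Without LysM+/+ array 2 Sorbs3 was at -0.30, Engase at -0.40 and Ahnak at -0.34. Without both outer arrays Mid1ip1 was at -0.31 and Timp2 at -0.39. After Mid1ip1 the distances were close, so the order carries little.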

How the data were processed

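RNA of 7 sorted macrophage samples was measured on Affymetrix Mouse Gene 2.0 ST arrays. The authors deposited 1 log2 intensity for each probe set and array. Affymetrix Expression Console made them, per the design text of the series, and the submitters' processing notes name Transcriptome Analysis Console as well. Background correction, summarisation, build and versions are not stated in the labels. Array medians were 5.16 to 5.21, a common scale that hides any shift shared by all genes. Correlations of arrays were 0.972 to 0.982 within and 0.968 to 0.977 between genotypes, and precision is limited by how few arrays there are.

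Of 41345 probe sets, 23521 had 1 gene symbol in the platform annotation, 1814 had several and 16010 had none listed. All but 193 Entrez identifiers matched a RefSeq gene table of GRCm38.p6, and 0 symbols changed. The probe set of highest mean over the 7 arrays stood for each of 22180 genes, with no filter on dim probe sets. Genotypes were compared over the whole table with limma 3.58.1 in R 4.3.3 (lmFit, eBayes), two-sided, without covariates and with Benjamini-Hochberg adjustment at 0.05. The design text counts 3 to 4 mice a group, but no label ties a sample to 1 mouse, so p-values measure the spread between these samples. The code was tested on simulated data.

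The members and the gene lists were chosen with earlier results of these data known. All members were named, with the 3 genes of smallest unadjusted p of each list (2 of lists under 6 measured genes), the 6 nearest profiles and Rictor. Predicted genes, microRNAs and immune receptor segments were not to be named. Motifs were sought in the 250 bases before each start in the RefSeq table with Python 3.11.15, and figures were drawn with matplotlib 3.10.9. Alternatives were other scalings, probe set rules and variance models, a filter on dim probe sets, array weights, a fibroblast score as covariate, a block for replicate number, and each array left out in turn. The neutrophil covariate and leaving out 2 arrays were added after the data were seen.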

Additional observations from a re-analysis of the deposited data

Results flagged for a closer look

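Within the LysM+/cre group 5 of the 47 sets of values tested had an array set apart from the other 3 by Dixon's test, and chance alone marks about 1 in 20. Hspe1 stood at 8.82 on LysM+/cre array 3, with the others between 9.29 and 9.34. On the same array Rictor was at 8.25, with the others between 7.72 and 7.80, and Hspb3 at 4.68, where the other 3 arrays shared the value 4.46. On LysM+/cre array 4 Hspa2 was at 6.79, with the others between 6.97 and 6.99, and Dnaja4 at 5.93, with the others between 5.53 and 5.58.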

How the results depend on the processing

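The inducible mean stayed negative in every setting that gave one, from -0.78 without LysM+/+ array 3 to -0.37 without both LysM+/+ array 2 and LysM+/cre array 3. Leaving out 1 array gave -0.78 to -0.47 for the inducible, -0.080 to -0.00093 for the constitutive and -0.54 to -0.25 for the mitochondrial members. The constitutive mean, which is Hspa8 alone, turned to 0.043 with the mean of all probe sets and to 0.072 with the probe set of highest variance. The mitochondrial mean was -0.099 without both outer arrays. Of the 9 members, 5 were lower at an unadjusted p under 0.05 in the reported fit, against 4.93% of all genes. Other settings follow, with the share of all genes lower in brackets. The number of members was 3 without LysM+/+ array 1 (5.51%), LysM+/+ array 2 (4.51%), LysM+/cre array 1 (3.23%) or LysM+/cre array 3 (4.13%). Without LysM+/cre array 4 it was 7 (3.56%). It was also 3 without moderation of the variance (3.25%) and with the neutrophil covariate (5.18%). It was 2 without both outer arrays (4.64%) and 1, Dnajb1, with the fibroblast covariate (2.69%). Adjusted p-values of Dnajb1 ranged from 0.23 to 0.762 and those of Hspb1 from 0.224 to 0.817.

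Over all genes 2 passed without moderation of the variance (Arhgef40 and Gmnn) and 2 with the neutrophil covariate (Cct6a and Clec12a), named after their values were seen, and 0 in the other 17 alternatives. At an unadjusted p under 0.05, 1093 genes were lower and 1456 higher. These became 858 and 1786 with array medians set equal, 720 lower without moderation, 596 lower and 836 higher with the fibroblast covariate, and 717 lower without LysM+/cre array 1.

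Directions turned for Hspa8 without both outer arrays (0.018) and with the neutrophil covariate (0.002), beside the probe set settings above. Hsf4 turned with the fibroblast covariate (-0.038), the neutrophil covariate (-0.0072), without LysM+/cre array 3 (-0.010) and without both (-0.023), against 0.042 without LysM+/cre array 2. Hsbp1 turned without LysM+/+ array 3 (-0.051) or LysM+/cre array 2 (-0.031) and otherwise reached 0.13 with 1 array left out, Cryaa with the fibroblast covariate (0.0069), Hspa1l without both outer arrays (0.065), and Rictor without LysM+/cre array 3 (-0.0040) or without both (-0.018), against 0.17 without LysM+/cre array 1. The causes were not tested.

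The labels do not say that samples with the same replicate number belong together. Deviations of same-numbered samples correlated at -0.11, 0.12 and 0.10. Differently numbered pairs were not compared, so these values cannot decide whether a batch was shared. With the replicate block the inducible mean was -0.77, the constitutive -0.061, the mitochondrial -0.49 and the class difference -0.28, with 0 genes passing. In that fit 7 members were lower at an unadjusted p under 0.05, against 4.07% of all genes. The block takes LysM+/cre array 4, which has no partner, out of the comparison.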

Other observations

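Hspa1l, an HSP70 gene that lies beside Hspa1a in the RefSeq table and is known for expression in the testis, varied over the arrays more than any member. Its signal was 5.63, 7.44 and 5.57 without cre, and 5.49, 5.84, 4.31 and 5.68 with cre, a difference of -0.89 ± 0.56 (SE, limma adjusted p = 0.571). LysM+/+ array 2 and LysM+/cre array 3 stood at its extremes, and the other 5 arrays lay between 5.49 and 5.84.

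Of the 22180 genes, 53.8% held an identical value on at least 2 of the 7 arrays. Hspa1a, with the same value on LysM+/+ array 1 and LysM+/cre array 2, was the only such member. Cryab, a small heat shock protein outside the naming rule and picked after its values were seen, read 5.12 on all 3 LysM+/+ arrays.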
